A study of Homo sapiens with 3 samples.

Results

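The genes described here are 55 lysosome and autophagy genes, read in single cells of BxPC-3, a long-established cell line from a human pancreatic ductal adenocarcinoma. They were taken by symbol from the 33694 features of the count tables, by a rule that uses no measured value. The list itself was chosen with earlier results of these data known. They fall into 4 groups, which are 16 lysosomal hydrolases and lumen proteins, 8 lysosomal membrane proteins, 6 subunits of the vacuolar proton pump (V-ATPase) and 25 autophagy genes.

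BxPC-3 cells stably carrying EGFP were mixed in equal number with BxPC-3 cells stably carrying mCherry, and the mixture was kept in suspension to induce cell-in-cell structures, in which one cell lies inside another. Double-positive cells, sorted for both fluorescent proteins, single-positive cells, sorted for one of them, and parental BxPC-3 cells were each sequenced as 1 droplet library. All of the cells came from the same line and were described as expanded and trypsinized before loading. Whether cells were expanded before the sort or after it is not in the labels, nor is it stated if both colours were pooled as single-positive cells, whether the parental cells carried a reporter, or how attached pairs of cells were kept out of the double-positive gate. With 1 library per population no difference between populations has a replicate check, no test between populations was possible, and intervals cover counting error only.

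Lysosomes are acidic organelles in which hydrolases break down proteins, lipids and sugars. The V-ATPase pumps protons across their membrane, and membrane glycoproteins such as LAMP1 and LAMP2 line it. In autophagy, a double membrane closes around cytoplasm, cargo receptors such as SQSTM1 (p62) link cargo to lipid-bound ATG8 proteins such as MAP1LC3B (LC3B), and the vesicle fuses with a lysosome. In entosis, the form of cell-in-cell invasion named in the study's title, LC3 is recruited to the vacuole around the inner cell, and lysosomes can then digest that cell. Pancreatic adenocarcinoma is known for a high demand on both systems.

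Cells were barcodes with at least 6500 unique molecular identifiers (UMIs, each standing for 1 captured RNA molecule), which gave 1940 double-positive, 1291 single-positive and 2409 parental cells. The summed depth was 61156461, 50458262 and 63782337 UMIs in the double-positive, single-positive and parental library. Median depth per cell was 29963.5, 38137 and 23290 UMIs in that order. Median mitochondrial share was 2.08%, 1.297% and 0.947%, and cells with under 0.5% mitochondrial UMIs made up 6.19%, 21.8% and 31.8%. At most 6 cell barcodes were shared by any pair of libraries and 0 by all 3. The sum of 9 epithelial markers was 14407, 15225 and 15416 counts per 1000000 UMIs (CPM). For the 11 immune markers the sum was 174, 197 and 164 CPM, and LAPTM5 alone gave 170, 193 and 159 CPM, while PTPRC, TYROBP, FCER1G and MS4A1 were at 0 in every library. CD14 had 4.37, 3.37 and 4.94 CPM. Fibroblast markers summed to 1.92 to 2.30 CPM and endothelial markers to 0.278 to 0.455 CPM. Apart from LAPTM5, no listed marker of other cell types was above 4.94 CPM.

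The lysosomal and autophagy genes were expressed at nearly the same level in all 3 populations. All 55 members together summed to 7122 CPM in double-positive, 6995 CPM in single-positive and 7496 CPM in parental cells. Averaged over the 3 libraries, 49 of the 55 reached 10 CPM, and their highest level was a median of 1.103 times their lowest, against 1.12 times for all 7687 genes above the same floor. For 42 of the 49 (85.7%) the highest level was under 1.2 times the lowest, against 82.9% of all genes. Such level expression was thus about as common among all genes as among members. Below the floor were the glycogen-degrading enzyme GAA, the autophagy kinase ULK1, the phosphoinositide-binding WIPI1, and ATG7 and ATG16L1, which act in ATG8 lipidation. PSAP, the saposin precursor, is listed at 0 in all 3 libraries and was not analysed further. Each UMI counts a molecule once near its 5′ end, so CPM was not divided by transcript length.

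**Figure D1:**
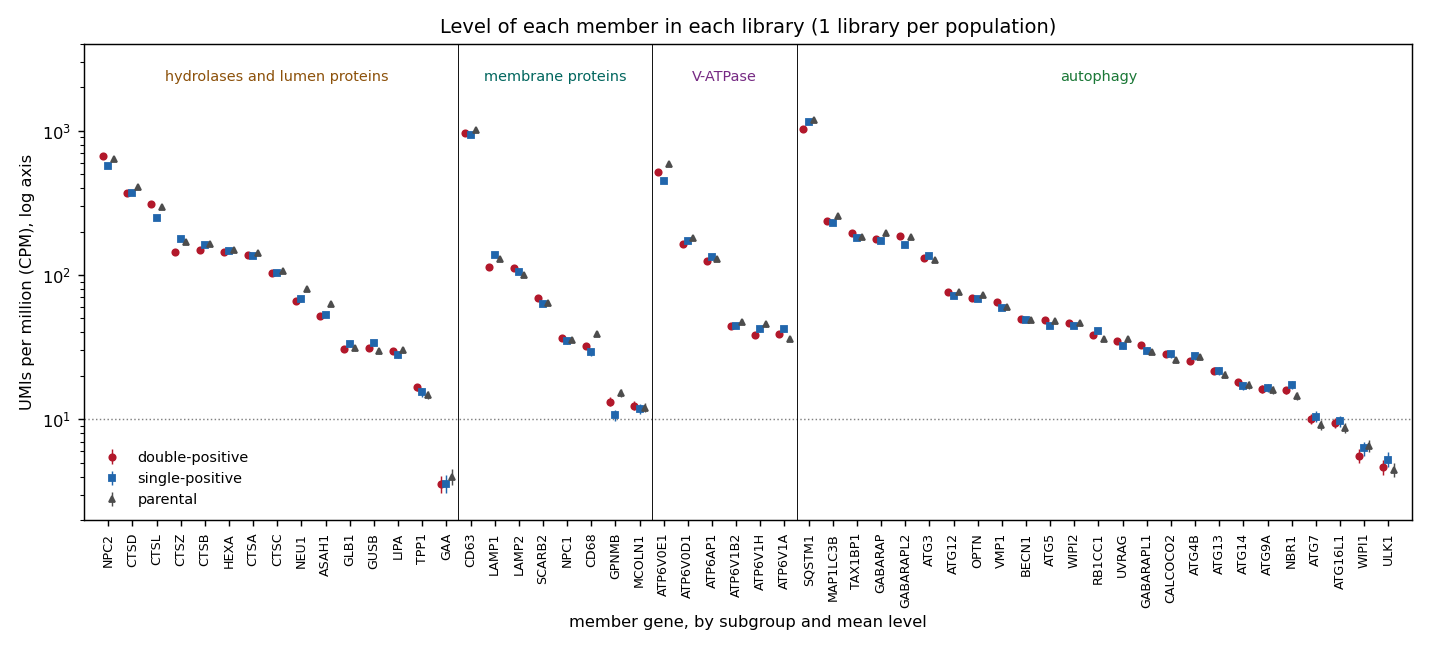
Level of each detected member in the double-positive (circles), single-positive (squares) and parental (triangles) library, in CPM on a log axis, with exact Poisson intervals at 95% as bars. The dotted line is the floor of 10 CPM, and the 3 symbols of a gene lie close together over the range between GAA, with 3.55, 3.57 and 3.98 CPM, and SQSTM1, with 1034, 1146 and 1190 CPM.

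Among hydrolases and lumen proteins, which summed to 2256 CPM in double-positive, 2150 CPM in single-positive and 2324 CPM in parental cells, the cholesterol carrier NPC2 stood at 669, 569 and 637 CPM. The aspartic protease CTSD had 369, 371 and 407 CPM, and the cysteine protease CTSL 309, 250 and 296 CPM in the same order. NPC2 and CTSL were thus lowest in single-positive cells, and CTSD was highest in parental cells. Among cells in the depth range that the libraries share, 22974 to 32998 UMIs, CTSL was instead higher in single-positive than in parental cells, at a log2 ratio of 0.11, and CTSD was level between double-positive and parental cells, at 0.00. The carboxypeptidase CTSZ had its lowest level in double-positive cells, with 146 CPM against 178 CPM in single-positive and 170 CPM in parental cells. The sialidase NEU1 had 66.6, 67.8 and 80.2 CPM, and the acid ceramidase ASAH1 52.4, 53.1 and 62.9 CPM. Both were higher in parental cells than in either sorted population. CTSB, CTSA, CTSC, HEXA, GLB1, GUSB, LIPA and TPP1 lay between 14.8 and 164 CPM, and for none of them was any library 25% above another.

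The 8 membrane proteins summed to 1358, 1334 and 1403 CPM in double-positive, single-positive and parental cells. Most of that was CD63, a tetraspanin of late endosomes and lysosomes, with 970, 942 and 1009 CPM. LAMP1 had 113, 137 and 128 CPM and LAMP2 had 111, 105 and 99.7 CPM. LAMP1 was therefore lowest and LAMP2 highest in double-positive cells. SCARB2, the receptor that carries glucocerebrosidase to lysosomes, NPC1, the partner of NPC2 in cholesterol export, and the calcium channel MCOLN1 had a highest level at most 1.098 times their lowest.

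The V-ATPase members summed to 929, 885 and 1028 CPM in the same order. ATP6V0E1, a small subunit of the membrane sector, gave most of that sum, and the remaining 5 members lay between 36.3 and 181 CPM. The 25 autophagy genes summed to 2579, 2626 and 2740 CPM. SQSTM1 was the member with the most molecules, as given with the plot of levels, and was lowest in double-positive cells. Of the ATG8 family, MAP1LC3B had 236, 228 and 255 CPM, GABARAP 179, 171 and 194 CPM, GABARAPL2 185, 162 and 185 CPM, and GABARAPL1 32.9, 29.95 and 29.5 CPM. The first 3 were lowest in single-positive cells, while GABARAPL1 was highest in double-positive cells. Of 11 other settings, 4 turned the sign of the double-positive over single-positive ratio of MAP1LC3B (-0.13 to 0.11 on the log2 scale) and 2 that of GABARAPL1 (-0.07 to 0.16), so the order of these 2 genes was not stable. Reads of MAP1LC3B and of the near-identical copy MAP1LC3B2, and of GABARAPL1 and GABARAPL3, could have been exchanged in counting. Of the 49 members, 23 were lowest in the single-positive library, against 26.3% of all genes, and 20 were highest in the parental library, against 24.0% of all genes.

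The promoter windows of several members carry the E-box of the lysosomal gene network (CLEAR) that TFEB and TFE3 bind. RefSeq promoter sequences of build GRCh38.p14, from 250 bases before to 50 bases after each gene's start, were found for 44 of the 55 members. The letters CACGTGAC, or GTCACGTG on the other strand, were present for 8 of these 44 (18.2%), against 2.93% of 27305 genes. The core CACGTG, which lies within both of these, was present in 10 members (22.7%), against 8.77% of all genes. TGATGCAA, or TTGCATCA on the other strand, the core of the C/EBP-ATF response element, was found in 0 of the 44 and in 1.08% of all genes. All genes here means every gene with a promoter window, expressed in these cells or not. CACGTGAC belongs to the motif of the lysosomal network itself, so its higher share among members is no independent result. The upstream stretches that hold the 8 genes' CACGTGAC matches are printed because these letters were more frequent among members than among all genes, although 36 of the 44 lack them. Each runs 5′ to 3′ on the gene's strand, and capitals mark the matches.
LAMP1, plus strand of chr13:113297025-113297238: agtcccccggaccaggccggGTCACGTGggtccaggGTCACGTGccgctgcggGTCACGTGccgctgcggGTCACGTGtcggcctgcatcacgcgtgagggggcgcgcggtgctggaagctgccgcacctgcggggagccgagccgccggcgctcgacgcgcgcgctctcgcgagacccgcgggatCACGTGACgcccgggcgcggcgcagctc
GAA, plus strand of chr17:80101483-80101577: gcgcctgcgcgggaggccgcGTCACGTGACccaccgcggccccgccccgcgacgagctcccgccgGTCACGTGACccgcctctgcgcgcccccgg
MCOLN1, plus strand of chr19:7522561-7522623: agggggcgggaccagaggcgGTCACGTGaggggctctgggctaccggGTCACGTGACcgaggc
CTSA, plus strand of chr20:45891271-45891334: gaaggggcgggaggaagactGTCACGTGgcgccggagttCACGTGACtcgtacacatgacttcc
CTSD, minus strand of chr11:1763947-1763994: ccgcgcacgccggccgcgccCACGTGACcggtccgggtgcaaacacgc
ATP6V0D1, minus strand of chr16:67481191-67481238: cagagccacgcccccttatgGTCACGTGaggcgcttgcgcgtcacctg
ATG3, minus strand of chr3:112561963-112562002: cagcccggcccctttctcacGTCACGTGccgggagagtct
ATG14, minus strand of chr14:55411831-55411871: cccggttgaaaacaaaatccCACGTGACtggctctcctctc

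LAMP1 held 6 matches in its window, of which 5 lie upstream of the start, ATG3 held 2, of which 1 lies upstream, and GAA held 4, counting overlapping matches on both strands. A match is a description of these letters and not a measured binding site. The 7 members with CACGTGAC and at least 10 CPM had a median log2 ratio of -0.01 for double-positive over single-positive cells, -0.02 for single-positive over parental and -0.05 for double-positive over parental cells. The 32 members without it had medians of 0.06, -0.04 and 0.01. Both groups thus lay within 0.06 of 0 in every comparison.

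In the comparison of double-positive with single-positive cells, no member was called. This comparison asks what RNA accompanies the sort for both colours among cells that went through suspension. A structure formed by cells of the same colour would sort as single-positive, so the comparison is not one of cell-in-cell formation against none. A gene was called where 1 level was at least 25% above the other, a log2 ratio of at least 0.322 in size, at a mean of 10 CPM or more. The count was 0 of 49 in either direction, where 1.35% of all genes were called higher and 2.68% lower in double-positive cells, or 4.03% either way. The summed log2 ratios were 0.07 for hydrolases, 0.03 for membrane proteins, 0.07 for the V-ATPase and -0.03 for autophagy genes. Medians over the members above the floor were -0.01, 0.08, -0.08 and 0.05 in that order. Above 0 lay 5 of 14, 7 of 8, 1 of 6 and 15 of 21 members. Except for membrane proteins, the sums thus had the opposite sign to most of their members. The members' median was 0.02, against -0.02 for all genes. The largest positive ratios were those of the membrane glycoprotein GPNMB, at 0.316 (95% interval 0.16 to 0.48), and of CTSL, at 0.30 (0.27 to 0.34). The lowest were those of CTSZ, at -0.29 (-0.33 to -0.25), and LAMP1, at -0.28 (-0.32 to -0.23). GPNMB lay just short of the threshold, and it passed under 7 of the other settings tried, with or without CTSL. With only cells of a shared depth range, GPNMB, LIPA, TPP1, ATG14 and VMP1 were called higher and CTSZ lower, where 16.1% of all genes were called.

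In the comparison of single-positive with parental cells, 3 of 49 members were called lower in single-positive cells and 0 higher, against 1.38% and 3.86% of all genes, or 5.24% either way. ATP6V0E1 (chr5:172983757-173035445, plus strand, GRCh38 with GENCODE 29) had 519 CPM in double-positive, 451 CPM in single-positive and 588 CPM in parental cells. Its log2 ratio for single-positive over parental cells was -0.38 (-0.41 to -0.36). CD68 (chr17:7579467-7582113, plus strand), a lysosomal glycoprotein often used to mark macrophages, had 32.0, 29.1 and 39.1 CPM, a log2 ratio of -0.43 (-0.52 to -0.33). GPNMB (chr7:23235967-23275108, plus strand) had 13.2, 10.6 and 15.3 CPM, a log2 ratio of -0.52 (-0.68 to -0.37). For all 3 genes the single-positive library was lowest, the parental library highest and the double-positive library in between, except that GPNMB stood at 0.03 for double-positive over parental cells in the shared depth range and CD68 at -0.03 for double-positive over single-positive cells among G1 cells.

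The single-positive library had fewer cells called G1 than the parental library, 30.4% against 40.2%. Among G1 cells alone, CD68 stood at -0.23 and ATP6V0E1 at -0.31, neither of them called, and GPNMB alone was called. In the shared depth range CD68 stood at -0.27 and ATP6V0E1 at -0.3198, so that neither was called there. The 5 members called in that range were GPNMB, LIPA, TPP1 and ATP6V1B2, all lower, and GABARAPL1, which was higher in single-positive cells, where 16.4% of all genes were called. The 49 members had a median of -0.04 for single-positive over parental cells, against 0.05 for all genes, and 33 of them lay below 0. Summed log2 ratios were -0.11 for hydrolases, -0.07 for membrane proteins, -0.22 for the V-ATPase and -0.06 for autophagy genes. Medians over members were -0.05, -0.03, -0.09 and -0.02 in that order. ATP6V0E1 holds most of the V-ATPase UMIs, and ATP6V1A and ATP6AP1 lay above 0, at 0.21 and 0.04. The autophagy sum turned to 0.02 in the shared depth range.

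In the comparison of double-positive with parental cells, 0 of 49 members were called in either direction, against 1.44% of all genes higher and 1.65% lower, or 3.10% either way. The lowest ratios were those of CD68, at -0.29 (-0.37 to -0.20), NEU1, at -0.27 (-0.33 to -0.21), and ASAH1, at -0.26 (-0.33 to -0.20). The highest was that of the tripeptidyl peptidase TPP1, at 0.17 (0.04 to 0.30). The 4 subgroup sums lay at -0.04, -0.05, -0.15 and -0.09 for hydrolases, membrane proteins, V-ATPase and autophagy genes. Medians over members were -0.04, -0.01, -0.12 and 0.02 in that order. Of 21 autophagy genes 15 lay above 0, while SQSTM1, with the most molecules, stood at -0.20. The sums of hydrolases and membrane proteins turned to 0.00 and 0.02 in the shared depth range. The 3 comparisons share libraries and are therefore not independent of each other.

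**Figure D2:**
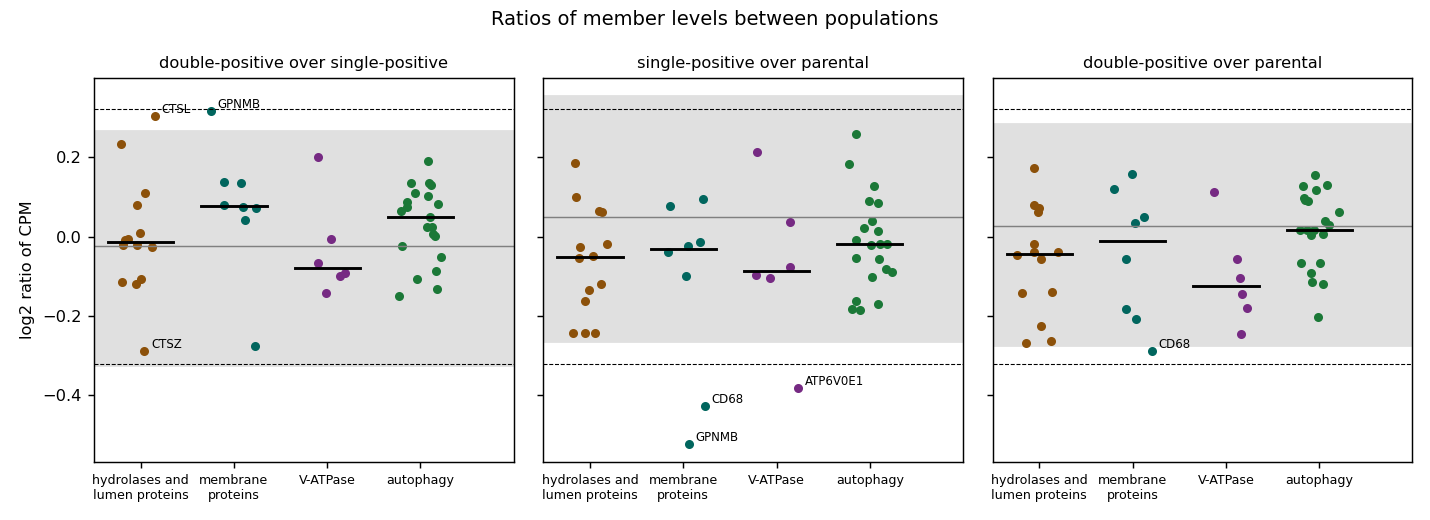
Log2 ratio of CPM for the 49 members above 10 CPM in the 3 comparisons, by subgroup, with 1 point per gene and bars at subgroup medians. The grey band holds the central 95% of all genes, the grey line is their median and dashed lines mark levels 25% apart. CD68, GPNMB and ATP6V0E1 lie below the lower dashed line in single-positive over parental cells, and in the other comparisons every point lies between the dashed lines.

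Few genes of a wider list of 112 other lysosome and autophagy genes were called either. Of these, 72 had at least 10 CPM, and their counts stand against the shares of all genes given for each comparison above. Between double-positive and single-positive cells 0 were higher and 1 was lower, LAPTM4B, a lysosomal membrane protein, with 108 CPM in double-positive and 136 CPM in single-positive cells (log2 ratio -0.33). Between single-positive and parental cells 1 was higher and 0 lower, MTOR, the growth kinase that acts at the lysosome, with 27.2 CPM in single-positive and 21.3 CPM in parental cells (0.35). Between double-positive and parental cells 0 were called. ATP6V1G1, another V-ATPase subunit, had 496, 405 and 498 CPM in double-positive, single-positive and parental cells. It was thus lowest in single-positive cells, as ATP6V0E1 was.

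Within each library, the members varied with the cell cycle phase. Phases were called from scores of S and G2M genes, none of them a member, on cells thinned to 6500 UMIs. G1, S and G2M held 37.8%, 27.7% and 34.5% of double-positive, 30.4%, 29.9% and 39.7% of single-positive and 40.2%, 26.0% and 33.8% of parental cells. Scores are continuous, and 346, 306 and 468 cells lay within 0.05 of another phase. Phase calls read the same free RNA as any other count, which was not separated here. In G2M over G1 cells, 20 of 49 members were at least 1.1-fold lower in all 3 libraries and 1 was higher, against 15.5% and 23.2% of all genes. In S over G1 cells, 23 were lower and 2 higher, against 16.1% and 22.1%. Median depth was higher in G2M than in G1 cells, at 35024.5 against 25882 UMIs in double-positive, 41378.5 against 36067 in single-positive and 28793 against 20746 in parental cells, and its part in the ratios was not tested beyond the thinned counts, in which 13 members were lower in G2M cells and 0 higher, against 10.5% and 19.1% of all genes.

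Of the 4 subgroups, autophagy genes had the lowest summed ratios in S and in G2M cells, and SQSTM1 alone gave 40.1%, 43.7% and 43.4% of the autophagy UMIs in double-positive, single-positive and parental cells. Of 21, 9 were lower in G2M and 12 in S cells in every library. Their summed log2 ratio was -0.32, -0.32 and -0.28 for G2M over G1 in double-positive, single-positive and parental cells, and -0.31, -0.34 and -0.29 for S over G1. Without SQSTM1 the G2M over G1 sum was -0.19, -0.23 and -0.18, which is above that of membrane proteins, at -0.28, -0.24 and -0.25. The S over G1 sum without SQSTM1 was -0.28, -0.29 and -0.27, and remained below the membrane proteins' -0.20, -0.21 and -0.21. SQSTM1 had 871 CPM in G2M against 1258 CPM in G1 cells of the double-positive library, 1035 against 1396 CPM in the single-positive and 1041 against 1392 CPM in the parental library. GABARAPL1 had 28.5 against 41.9 CPM, 25.5 against 44.1 CPM and 24.0 against 38.5 CPM in the same order. In S cells GABARAPL1 lay at log2 ratios of -0.61, -0.99 and -0.65. MAP1LC3B lay in S cells at -0.46, -0.63 and -0.52, and the mitophagy receptor OPTN at -0.47, -0.59 and -0.72. The cargo receptors SQSTM1, OPTN, NBR1, TAX1BP1 and CALCOCO2 were all called lower in S cells.

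Of the 28 lysosomal members above the floor, 11 were lower in G2M and 11 in S cells in every library. CTSD had 314 CPM in G2M against 421 CPM in G1 cells of the double-positive library, 319 against 473 CPM in the single-positive and 342 against 493 CPM in the parental library. ASAH1 lay at log2 ratios of -0.31, -0.48 and -0.43, CTSL at -0.33, -0.32 and -0.32 and CD63 at -0.31, -0.29 and -0.28. The β-glucuronidase GUSB went the other way, with 33.0 against 26.2 CPM, 35.2 against 27.5 CPM and 32.5 against 23.8 CPM in G2M against G1 cells. GUSB was also higher in S cells, at 0.42, 0.44 and 0.49, as was ATG3, the enzyme that transfers ATG8 proteins to lipid, at 0.18, 0.26 and 0.21. Of the 72 other pathway genes, 35 were lower in G2M and 26 in S cells, and 5 were higher in each. Of members with CACGTGAC in their promoter window, 3 of 7 were lower in G2M cells, against 15 of 32 without it.

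**Figure D3:**
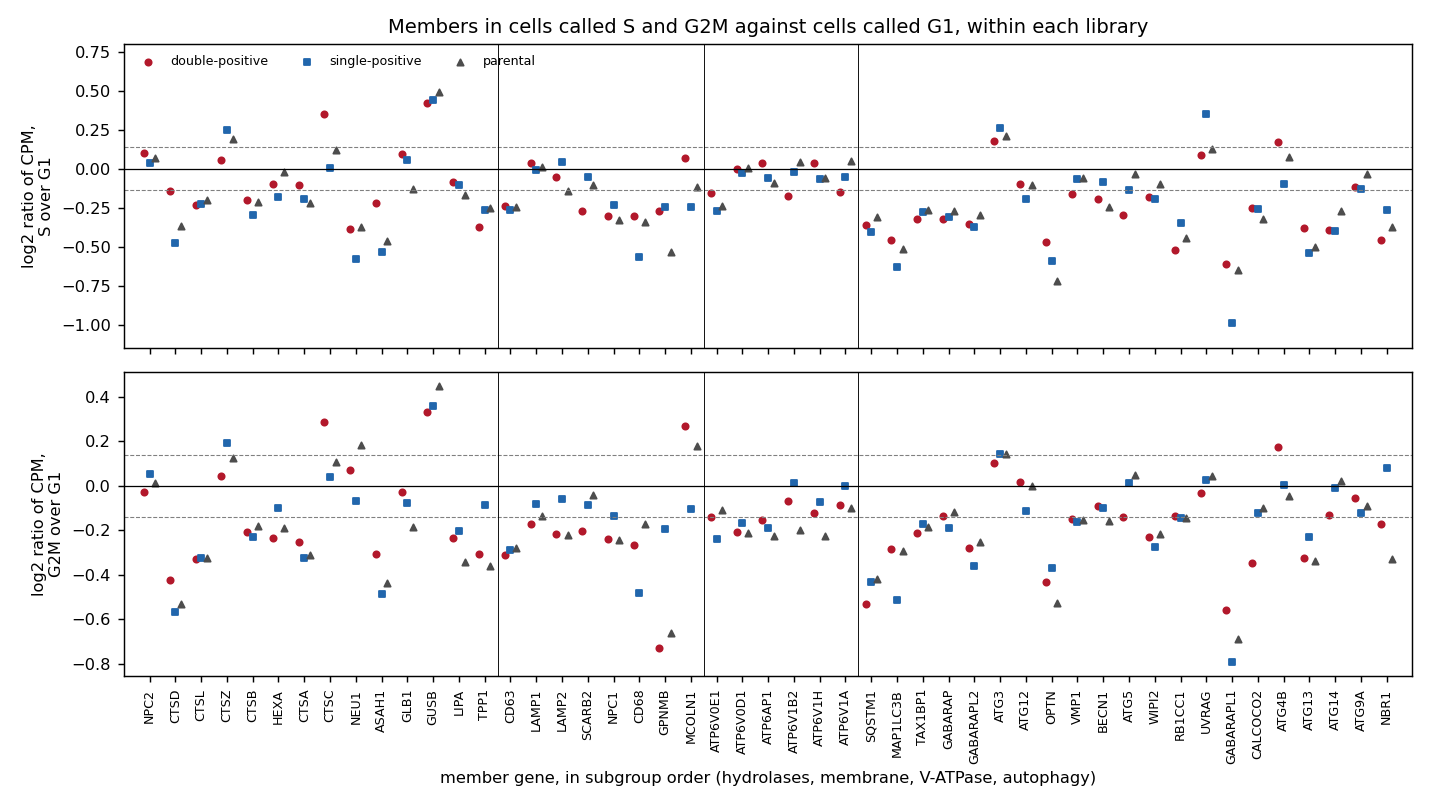
Log2 ratio of CPM in S over G1 cells (upper panel) and in G2M over G1 cells (lower panel) for the 49 members, by subgroup, in double-positive (circles), single-positive (squares) and parental (triangles) cells. Dashed lines mark 1.1-fold. GUSB lies above them in both panels, and GABARAPL1, OPTN, MAP1LC3B, SQSTM1 and ASAH1 lie below in all 3 libraries.

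Levels were also compared between the 20% of cells with the highest and the 20% with the lowest score of other gene programmes, again from lists that hold no member. These high and low cells are the ends of continuous scores. As for phases, a member was called where it was at least 1.1-fold apart the same way in all 3 libraries. The clearest contrast was CTSD by the score of 17 squamous genes such as SPRR1B, KRT6A and S100A9. CTSD had 528 CPM in high and 248 CPM in low cells of the double-positive library, a log2 ratio of 1.09 (1.03 to 1.15). It had 588 against 207 CPM in single-positive cells, a ratio of 1.505 (1.43 to 1.58), and 669 against 242 CPM in parental cells, a ratio of 1.47 (1.41 to 1.53). In every library CTSD was thus more than 2-fold higher in the high cells. G1 cells made up 51.5%, 35.1% and 63.7% of the high and 24.5%, 22.01% and 26.8% of the low cells in double-positive, single-positive and parental cells. Among G1 cells alone the CTSD ratios were 1.07, 1.18 and 1.42. In the single-positive library the high cells had a median of 16446 UMIs against 41292 in the low cells. Among cells of at least 15000 UMIs the CTSD ratio was 1.11, 1.54 and 1.47 in the same order.

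Other members moved in both directions with the squamous score. Of 49 members, 12 were at least 1.1-fold higher and 6 lower in all 3 libraries, against 15.2% and 23.0% of all genes. Among G1 cells 9 were higher and 9 lower, against 15.1% and 18.3%, and among cells of at least 15000 UMIs 9 were higher and 6 lower, against 14.8% and 24.4%. CTSB was higher in the high cells at log2 ratios of 0.32, 0.34 and 0.48 in double-positive, single-positive and parental cells. CTSZ was lower at -0.54, -0.78 and -0.74, and SQSTM1 at -0.34, -0.27 and -0.30. Cathepsins therefore lay at both ends.

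With the score of 18 p53 target genes, 19 members were higher in the high cells of all 3 libraries and 0 lower, against 17.2% and 15.8% of all genes. Among G1 cells 21 were higher and 1, CTSZ, was lower, against 14.2% and 13.0%. MAP1LC3B had 329 CPM in high and 199 CPM in low cells of the double-positive library, 336 against 178 CPM in single-positive and 367 against 191 CPM in parental cells. CTSD lay at log2 ratios of 0.62, 0.62 and 0.65, NEU1 at 0.46, 0.46 and 0.66, and OPTN at 0.56, 0.52 and 0.57. BxPC-3 is known to carry mutant p53, and the name of the list is only a label for its genes.

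The score of 20 genes of the amino acid response, in which ATF4 induces genes such as ASNS and TRIB3, gave 8 members higher and 1 lower in all 3 libraries, against 10.7% and 4.41% of all genes. MAP1LC3B lay at log2 ratios of 0.89, 1.08 and 1.04 in double-positive, single-positive and parental cells, SQSTM1 at 0.54, 0.39 and 0.55 and GABARAPL1 at 0.72, 0.71 and 0.47. Among G1 cells 6 members were higher and 0 lower, against 10.5% and 5.23%, and MAP1LC3B lay at 1.02, 1.40 and 1.04. With the score of 18 interferon-stimulated genes, 14 members were higher and 0 lower, against 11.4% and 11.3%, and among G1 cells 9 were higher and 1 lower, against 8.44% and 11.1%. CTSL had 360 against 280 CPM, 290 against 216 CPM and 348 against 267 CPM in high against low cells. CD68 lay at 0.67, 0.81 and 0.54 and the acid lipase LIPA at 0.33, 0.52 and 0.56.

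The immediate early score gave 9 members higher and 2 lower, against 15.8% and 8.90%. Cells with under 0.5% mitochondrial UMIs differed from the rest in 5 members that were higher and 1 that was lower, against 3.42% and 9.77%. Many members also differed between deep and shallow cells. In the 25% of cells with most UMIs against the 25% with fewest, 20 members were lower and 1 was higher in all 3 libraries, against 16.1% and 10.3% of all genes. GPNMB, for example, had 8.42 against 22.4 CPM in double-positive, 8.93 against 14.6 CPM in single-positive and 12.995 against 20.8 CPM in parental cells. G1 cells made up 28.9% of the deep against 52.8% of the shallow cells, 24.5% against 24.8% and 32.7% against 50.6% in the same order. Median mitochondrial share was 1.61% against 2.66%, 0.640% against 3.27% and 0.352% against 1.70%. The separate parts of depth, phase and mitochondrial share were not tested.

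Spread between cells was read from counts thinned to 6500 UMIs per cell, as the variance over the mean, placed among the 300 genes of nearest mean. Of 51 members with enough counts, 1 was in the top 10% in all 3 libraries, against 5.80% of 8174 genes. This was MAP1LC3B, at percentiles 94.0, 95.7 and 94.0 in double-positive, single-positive and parental cells. Its variance was 2.49, 3.05 and 2.79 times its mean, where the genes of like mean had medians of 1.18, 1.18 and 1.202. The median percentile of the members, averaged over the libraries, was 51.3, and 18 of 51 lay above percentile 50 in all 3 libraries, against 24.8% of all genes.

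GPNMB lay at percentiles 98.0, 79.0 and 97.3, GABARAPL1 at 92.0, 89.7 and 88.0, CTSL at 91.7, 87.3 and 81.0, CTSD at 83, 87.3 and 87.0, and SQSTM1 at 85.0, 81.7 and 84.7. At the even end were LAMP1, at 2.33, 14 and 26.3, and the V-ATPase subunits ATP6V1B2, at 17.3, 22.7 and 21.0, and ATP6V1H, at 27.3, 19.3 and 17.0. The 30 lysosomal members together gave a median of 29 UMIs per thinned cell in double-positive, 29 in single-positive and 31 in parental cells, with 90th percentiles of 41, 39 and 42. SQSTM1 gave a median of 6, 7 and 7 UMIs and a 90th percentile of 13, 13 and 15, with single cells of up to 76, 71 and 65 UMIs. A few cells of every library thus held far more SQSTM1 than the rest.

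**Figure D4:**
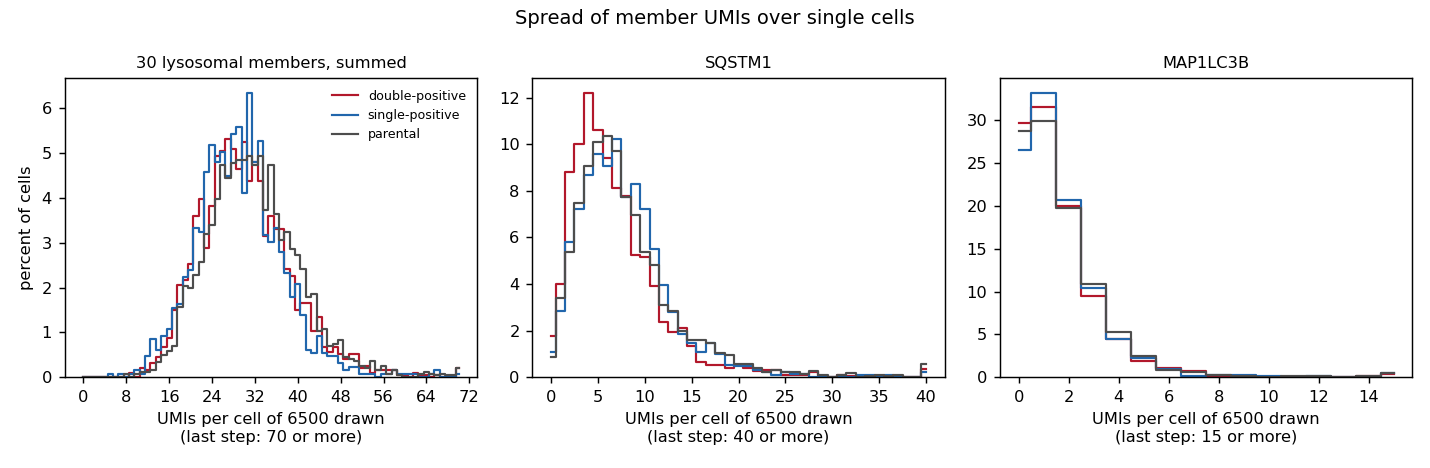
Percent of cells (y axis) by UMIs per thinned cell (x axis) for the 30 lysosomal members summed, for SQSTM1 and for MAP1LC3B in double-positive, single-positive and parental cells, with all higher counts in the last step. The curves of the 3 libraries overlap, with lysosomal medians of 29, 29 and 31, and SQSTM1 and MAP1LC3B have long right tails.

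Across cells of 1 library, the members moved together only weakly. Over 351 pairs of 27 members with at least 0.3 thinned UMIs per cell, the median Spearman correlation was 0.02 in each library, against 0.00 over all pairs of 2991 genes. The highest pairs were CTSD with CTSA in double-positive cells, at 0.12, SQSTM1 with MAP1LC3B in single-positive cells, at 0.17, and ASAH1 with CTSD in parental cells, at 0.16. Summed autophagy and summed lysosomal counts correlated at 0.20, 0.18 and 0.14 in double-positive, single-positive and parental cells. Among the genes most like the lysosomal sum, averaged over the 3 libraries, were B2M at 0.31, FXYD3 at 0.24, IFI6 at 0.22, TIMP1 at 0.21 and CST3 at 0.21, where the median over genes was 0.00. B2M encodes beta-2 microglobulin, and IFI6 is interferon-induced. These correlations share cells, depth and library, and weak values in sparse counts are given as description.

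Since some cells held far more SQSTM1 than the median cell, cells with most SQSTM1 were set against the rest, a split chosen after its values were seen. Cells at or above the 90th percentile of thinned SQSTM1 UMIs numbered 204 double-positive, 165 single-positive and 260 parental cells, and cells at or below the median numbered 1103, 704 and 1357. The cut stood at 13, 13 and 15 UMIs, with 38, 36 and 39 cells exactly at it and 46, 51 and 48 cells 1 UMI below. G1 cells made up 65.7%, 49.1% and 61.9% of the high cells and 30.01%, 25.9% and 33.5% of the low cells in double-positive, single-positive and parental cells. Median depth was 27514 against 30396 UMIs, 37617 against 40799.5 UMIs and 20412 against 24497 UMIs.

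Of the 48 other members, 3 were at least 25% higher in high cells of all 3 libraries and 0 were lower by the same ratio, against 3.53% and 3.38% of all genes. MAP1LC3B had 376 against 203 CPM in double-positive, 428 against 200 CPM in single-positive and 493 against 212 CPM in parental cells, at log2 ratios of 0.89, 1.096 and 1.22. GABARAPL1 had 55.8 against 33.3 CPM, 54.1 against 28.6 CPM and 52.7 against 25.4 CPM. GPNMB had 24.1 against 12.3 CPM, 13.1 against 6.77 CPM and 31.4 against 13.9 CPM, with an interval in single-positive cells of -0.08 to 1.90. Within G1 cells, MAP1LC3B lay at 0.51, 1.28 and 0.94, GABARAPL1 at 0.34, 0.79 and 1.02 and GPNMB at 0.97, 1.85 and 1.18. These G1 ratios rest on only 134, 81 and 161 high and 331, 182 and 455 low cells. They are given without intervals, and that of GPNMB, a gene near the floor, rests on few UMIs. The median over the 48 members was 0.20, 0.21 and 0.19, against -0.02, 0.00 and -0.01 for all genes. CTSD and CD63 lay at 0.33, 0.26 and 0.22 and at 0.23, 0.25 and 0.16, and LAMP1 at 0.20, 0.08 and -0.05. Within G1 cells CTSD lay at 0.32, 0.29 and 0.22, CD63 at 0.15, 0.19 and 0.16 and LAMP1 at 0.12, 0.13 and -0.02. The high cells held more G1 cells, and the median over members was not computed within G1 cells. There, members lay both above and below 0 in every library.

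Genes outside the list were ranked only where their mean was at least 30 CPM. Among these, the highest ratios in all 3 libraries were those of DDIT3, a stress-induced transcription factor. DDIT3 had 168 against 30.5 CPM in double-positive, 118 against 30.4 CPM in single-positive and 236 against 32.5 CPM in parental cells. Its log2 ratios were 2.46, 1.96 and 2.86, and 1.75, 2.17 and 2.04 within G1 cells. The aldo-keto reductases AKR1C1 and AKR1C2, known NRF2 targets and near-identical copies whose reads could have been exchanged, lay at 1.55, 1.59 and 1.74 and at 1.54, 1.70 and 1.86. The stress genes DDIT4 and TRIB3, both in the amino acid response list, lay at 2.24, 1.41 and 2.17 and at 1.86, 1.24 and 1.82. The chemokines CXCL8 and CXCL2 lay at 2.43, 1.45 and 2.69 and at 1.91, 1.28 and 1.55. Within G1 cells the ratios of CXCL8 were smaller, at 1.42, 0.90 and 0.98, and those of CXCL2 were 0.98, 0.93 and 1.15. These genes were picked for their lowest ratio over the 3 libraries, so that they are shared by the libraries is part of the choice.

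**Figure D5:**
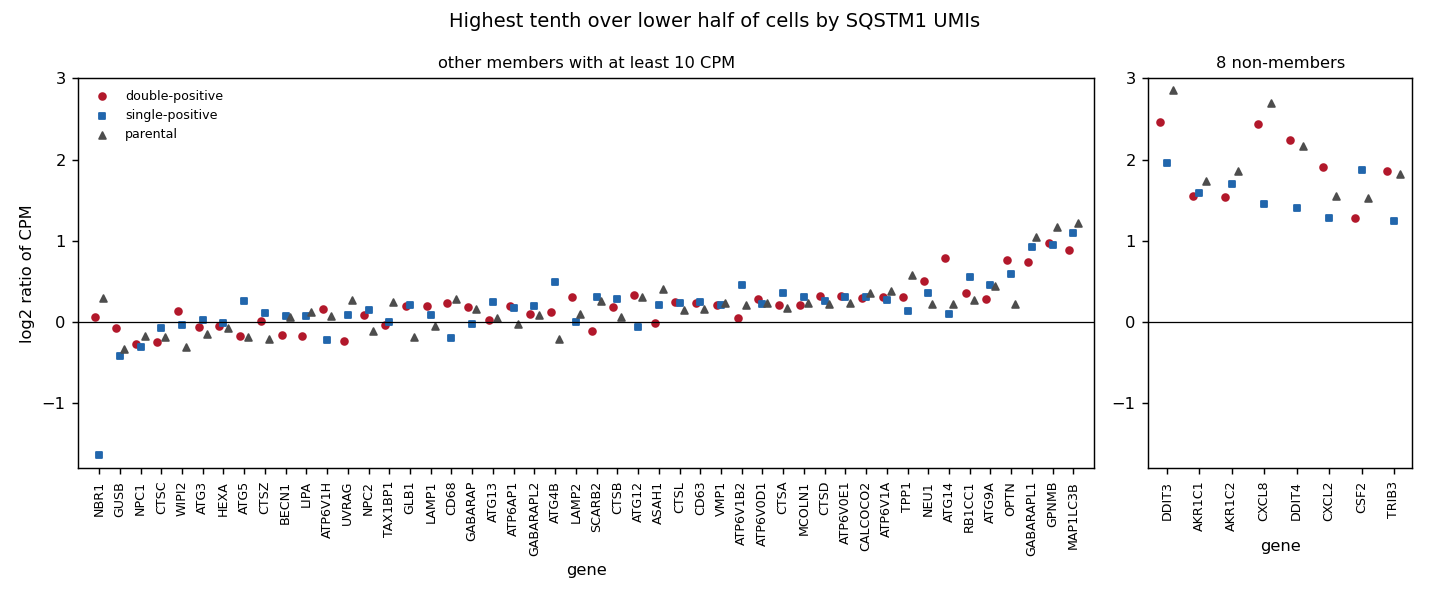
Log2 ratio of CPM in cells at or above the 90th percentile of SQSTM1 UMIs over cells at or below the median, for the other 48 members in ascending order (left) and for the 8 non-members with the highest lowest ratio over the 3 libraries (right), in double-positive (circles), single-positive (squares) and parental (triangles) cells. MAP1LC3B, GPNMB and GABARAPL1 stand at the right end of the members, at 0.74 or more in each library, and DDIT3 at 1.96 or more. The single-positive value of NBR1, -1.64, rests on 6.53 against 20.3 CPM.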

How the data were processed

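The deposited matrices hold UMI counts per gene and barcode, not normalized and not filtered for cells. The authors made them with Cell Ranger, per the file headers. Build GRCh38, Seurat 4.0.6 and Cell Ranger 4.0.0 are named in the submitters' processing notes. No annotation release is named there. The chemistry was 10x Chromium 5′, per the labels' protocols.

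UMIs of barcodes with at least 6500 UMIs were summed per library and scaled to CPM. No doublets were removed. Log2 ratios have exact conditional binomial (Clopper-Pearson) intervals at 95%, and levels exact Poisson intervals, which cover counting error only. Called means at least 25% apart with a mean of 10 CPM or more, or 1.1-fold the same way in all 3 libraries for phases and scores. No p-value was computed, since cells are no replicates of a population. The members and lists were chosen with earlier results of these data known. Every member could be named. Values per library were given for members called, for the ends of each subgroup and for the ATG8 family, and up to 4 genes at each end of the wider list could be named. Some of the genes most like the lysosomal sum are not reported here. The SQSTM1 split was computed on thinned counts. Scores came from scanpy 1.11.5 with numpy 2.4.6, scipy 1.17.1 and pandas 2.3.3 under Python 3.11.15. Steps were tested on simulated data.

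Alternatives changed the cell cut, mitochondrial limit, depth, phase, scaling, ambient RNA and floor. Other folds, scores within G1 cells and the squamous score in deep cells were added after seeing the data.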

Additional observations from a re-analysis of the deposited data

How the results depend on the processing

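The count of members at least 25% apart between double-positive and single-positive cells was 0. With the share of all genes called in parentheses, it became 1 without the highest 5% of cells by UMIs (4.14%), 6 in the shared depth range (16.1%), 1 in G1 cells (6.56%), 2 with median-of-ratios scaling (3.62%), 2 with the mean of per-cell CPM (5.92%), 2 on thinned counts (10.5%), 1 after ambient RNA was subtracted (5.08%) and 10 at 1.1-fold (33.1%). For single-positive over parental cells the count of 3 became 5 in the shared depth range (16.4%), of which GPNMB alone was among the 3, 1 in G1 cells (6.28%), 0 at 1.5-fold (0.403%) and 15 at 1.1-fold (38.7%). It was 4 with the mean of per-cell CPM (7.21%), with ATG16L1 higher, 4 on thinned counts (11.01%), with NBR1 higher, and 2 at a floor of 30 CPM (4.26%). For double-positive over parental cells the count of 0 became 1 in the shared depth range (NEU1, 5.66%), 1 in G1 cells (ASAH1, 6.53%) and 15 at 1.1-fold (28.8%). The 21 members called between G2M and G1 cells became 13 on thinned counts and 32 with cells further from the phase boundary, of which 31 were lower and 1 higher, against 21.2% and 26.8% of all genes. The single member of high spread became 2 in cells of at least 15000 UMIs, with GABARAPL1 added. The cause of these shifts was not tested. In the shared depth range, 22974 to 32998 UMIs, only 701 double-positive, 142 single-positive and 628 parental cells remained.

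No paired analysis was possible because each population had 1 library and all carry the same replicate number. For the same reason no replicate was left out. Depth limits GPNMB, MCOLN1 and other members near 10 CPM most.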
